A study of Danio rerio with 12 samples.

Results

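The genes described here are 9 genes listed for how zebrafish ionocytes move ammonia, acid and salts or are specified. They are the ammonia channels rhcga, rhcgb and rhbg, the sodium/proton exchanger slc9a3.2, the carbonic anhydrase ca15a, the sodium-chloride cotransporter slc12a10.2, the calcium channel trpv6 and the transcription factors foxi3a and foxi3b. They were chosen by name, with earlier results of these data known, and are 9 of the 35004 genes in the deposited table. Of them, 7 were matched by symbol, and rhcga and rhcgb, which share the table symbol RHCG, were told apart by the gene description.

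Whole zebrafish larvae at 3 days after fertilization were sequenced in 4 groups of 3 libraries. The groups were gcn2 knockout larvae (KO) in hypoxia, wild-type larvae (WT) in hypoxia, KO larvae in normoxia and WT larvae in normoxia, each kept under its oxygen condition for 8 hours. The RNA was poly(A)-selected. The oxygen level, the knockout allele, the parents and the number of larvae in a library are not given in the sources used here.

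Ionocytes are scattered cells of the skin of fish larvae, and later of the gill, that exchange salts, acid and ammonia with the water. Several types are known in zebrafish. H+-ATPase-rich (HR) cells secrete acid, take up sodium and carry apical Rh ammonia channels, Na+/K+-ATPase-rich (NaR) cells take up calcium through trpv6, and NCC cells take up sodium and chloride with slc12a10.2. The forkhead factors foxi3a and foxi3b specify ionocytes from epidermal precursors.

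The deposited values are named FPKM, that is, fragments scaled by gene length and a total for each library, so levels can be set side by side between genes. The totals used were not the plain read depth, as described under the processing. Fold changes are differences of group means of log2(FPKM + 1), which understates the change of low genes, and the error after each is its standard error. Adjusted p-values come from limma over the 21480 genes with at least 1 FPKM in at least 3 libraries, with Benjamini-Hochberg adjustment and a threshold of 0.05. Recovered reads ran from 15668848 to 16841145 a library. The targeted gene eif2ak4, which encodes Gcn2, had 1.55, 1.95 and 1.52 FPKM in KO hypoxia, against 4.23, 4.18 and 4.25 FPKM in WT hypoxia, and 1.66, 1.85 and 1.70 FPKM in KO normoxia, against 3.82, 3.91 and 3.63 FPKM in WT normoxia. Every KO library was below every WT library.

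Among the ammonia channels, rhcga moved most. This gene lies on chromosome 7 (14291323 to 14302716, plus strand, GRCz11) and encodes an Rhcg-type channel. It had 57.9, 55.4 and 44.5 FPKM in KO hypoxia, 31.3, 28.1 and 36.4 FPKM in WT hypoxia, 1.66, 3.04 and 1.62 FPKM in KO normoxia, and 1.97, 2.13 and 1.98 FPKM in WT normoxia. All 6 hypoxia libraries were far above all 6 normoxia libraries, the KO hypoxia libraries were above the WT hypoxia libraries, and the genotypes overlapped in normoxia. The mean was 25.0 times as high in hypoxia as in normoxia in KO larvae and 15.7 times as high in WT larvae. On the log2 scale hypoxia raised it by 4.13 ± 0.15 in KO larvae (adjusted p = 1.85e-09) and by 3.44 ± 0.15 in WT larvae (adjusted p = 1.48e-08). These log2 fold changes ranked 2 and 6 among the 21480 genes, counted from the largest. In whole larvae, more or fewer cells of a type and more or less RNA per cell cannot be told apart.

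Under hypoxia rhcga was higher in KO than in WT larvae by 0.70 ± 0.15 (adjusted p = 0.00407), with 3 of 3 KO libraries above all WT libraries. In normoxia the genotypes differed by 0.01 ± 0.15, with a 95% confidence interval of -0.33 to 0.34. The order of the group means was thus KO hypoxia, WT hypoxia and then both normoxia groups, which did not differ beyond their spread. The test of whether the hypoxia response itself differed between genotypes gave 0.70 ± 0.22, with an interval of 0.23 to 1.17 and an adjusted p of 0.0619. That p became 0.0224 without KO normoxia replicate 2, 0.0450 without WT hypoxia replicate 3 and 0.0426 without KO hypoxia replicate 3, and all alternatives together ran from 0.0224 to 0.152.

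rhcgb encodes the apical ammonia channel of HR cells and lies on chromosome 25 (8581541 to 8602437, minus strand). It had 14.7, 15.6 and 14.6 FPKM in KO hypoxia, 5.67, 5.39 and 6.98 FPKM in WT hypoxia, 6.23, 6.46 and 7.09 FPKM in KO normoxia, and 4.44, 3.03 and 3.68 FPKM in WT normoxia. The KO hypoxia libraries stood above all others, the WT normoxia libraries stood below all others, and WT hypoxia overlapped KO normoxia. Hypoxia raised rhcgb by 1.07 ± 0.11 in KO larvae (adjusted p = 7.04e-06) and by 0.58 ± 0.11 in WT larvae (adjusted p = 0.00116).

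rhcgb was higher in KO larvae under both oxygen conditions. KO exceeded WT by 1.19 ± 0.11 in hypoxia (adjusted p = 8.68e-06) and by 0.70 ± 0.11 in normoxia (adjusted p = 0.000994), and in both the 3 KO libraries lay above the 3 WT libraries. The difference between the responses to hypoxia was 0.50 ± 0.15, with an interval of 0.17 to 0.83 and an adjusted p of 0.0579. Without WT normoxia replicate 2 this p was 0.0264, without WT hypoxia replicate 3 it was 0.0267, and over all alternatives it ran from 0.0264 to 0.195.

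rhbg, the Rh type B ammonia channel, was the most abundant of the 9 genes in every group and lies on chromosome 16 (29265796 to 29277164, minus strand). It had 94.3, 94.4 and 90.6 FPKM in KO hypoxia, 107, 91.9 and 108 FPKM in WT hypoxia, 58.8, 56.8 and 59.2 FPKM in KO normoxia, and 77.3, 79.0 and 79.8 FPKM in WT normoxia. The hypoxia libraries were above the normoxia libraries in both genotypes, and the KO normoxia libraries were the lowest of all. Hypoxia raised rhbg by 0.67 ± 0.06 in KO larvae (adjusted p = 1.99e-06) and by 0.37 ± 0.06 in WT larvae (adjusted p = 0.000327).

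The genotype difference of rhbg ran against that of rhcgb. In normoxia KO larvae were lower in rhbg by a log2 fold change of -0.43 ± 0.06 (adjusted p = 0.00038, 3 of 3 libraries below). In hypoxia the difference was -0.13 ± 0.06, with an interval of -0.25 to -0.00 and an adjusted p of 0.104. It passed the threshold with TPM scaling (adjusted p = 0.0216), with voom on recovered reads (0.0442) and without WT hypoxia replicate 2 (0.00736), within a range of 0.00736 to 0.279 over all alternatives.

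Of the 9 genes, rhbg was the only one whose response to hypoxia differed between genotypes past the threshold. Its interaction of genotype and oxygen was 0.30 ± 0.08 (interval 0.12 to 0.48, adjusted p = 0.0402). This call was lost with no filter (0.0568), with TPM scaling (0.184) and without any one of 9 libraries. Those were each of the WT normoxia replicates (0.0757, 0.0614 and 0.0881 without replicates 1, 2 and 3), each of the KO normoxia replicates (0.0716, 0.0861 and 0.0745), WT hypoxia replicate 2 (0.0567) and KO hypoxia replicates 1 and 2 (0.0875 and 0.0772). Over all alternatives the adjusted p ran from 0.0248 to 0.184.

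**Figure D1:**
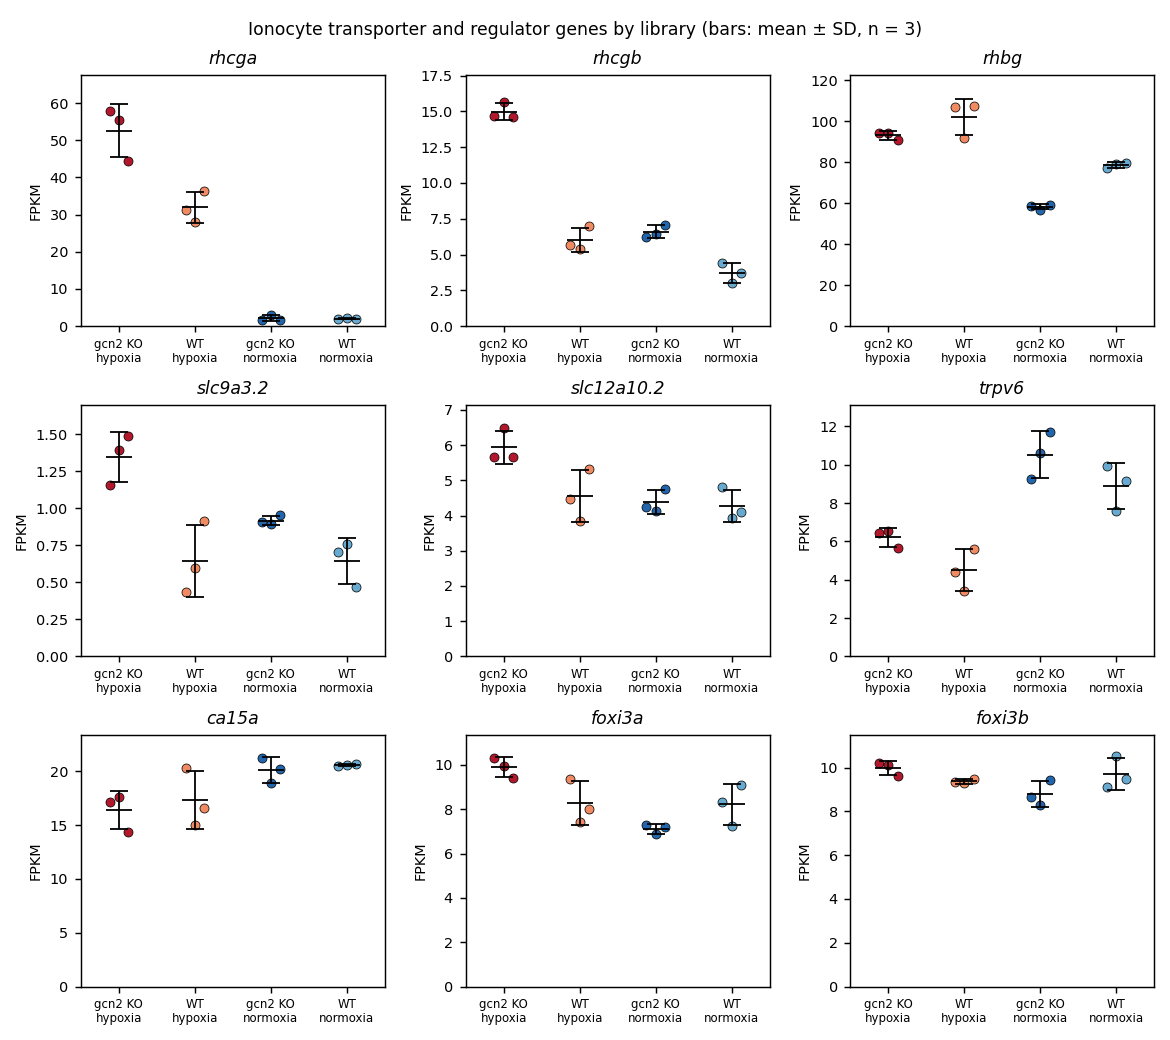
FPKM of the 9 genes, 1 panel each, in KO hypoxia, WT hypoxia, KO normoxia and WT normoxia from left to right; points are libraries and bars give the mean ± SD of 3 libraries. The rhcga libraries lay between 28.1 and 57.9 FPKM in hypoxia and between 1.62 and 3.04 FPKM in normoxia, while foxi3b stayed between 8.29 and 10.5 FPKM in all 12.

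The makeup of the Rh family differed between the oxygen conditions. The family here is the 3 channels above with rhcgl1, an Rhcg-like gene, rhag, the Rh glycoprotein of red cells, and rhd. Summed over the family, FPKM was 269 ± 15.2 in KO hypoxia and 214 ± 18.4 in WT hypoxia, against 145 ± 1.79 in KO normoxia and 152 ± 6.12 in WT normoxia (SD, n = 3 each). rhcga made up 19.5 ± 1.64% of the sum in KO hypoxia and 14.9 ± 0.794% in WT hypoxia, against 1.46 ± 0.564% in KO normoxia and 1.34 ± 0.115% in WT normoxia. By mean FPKM it ranked 2 of the 9 genes in both hypoxia groups and 8 in both normoxia groups. The ratio of mean rhbg to mean rhcga was 1.77 in KO hypoxia and 3.198 in WT hypoxia, against 27.7 in KO normoxia and 38.8 in WT normoxia.

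**Figure D2:**
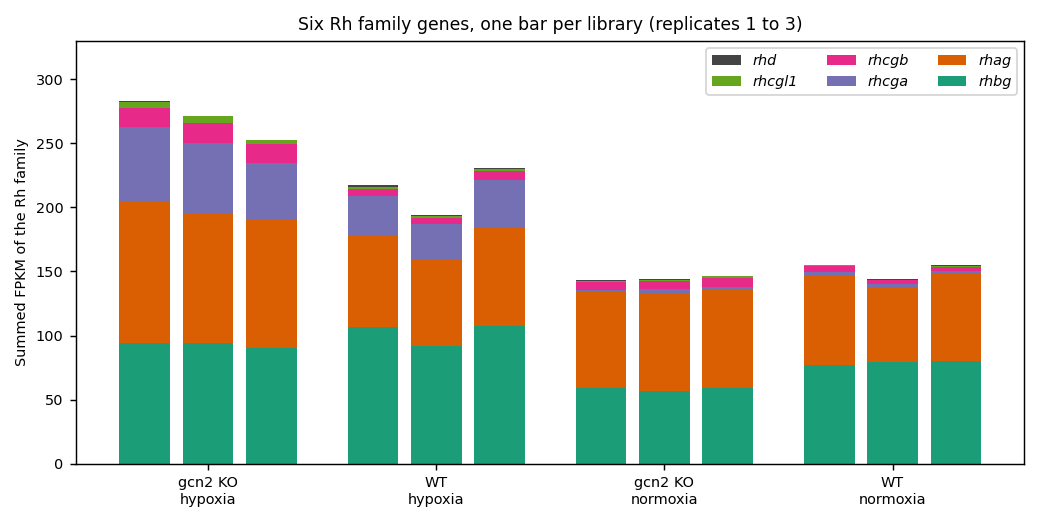
Summed FPKM of the 6 Rh family genes, 1 stacked bar a library, replicates 1 to 3 within KO hypoxia, WT hypoxia, KO normoxia and WT normoxia from left to right. The rhcga segment is 17.6 to 20.5% of the bar in KO hypoxia and 1.104 to 2.108% in KO normoxia, and rhbg and rhag fill most of each bar.

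The other Rh genes were tested in the same fit. rhcgl1 had 4.58, 4.83 and 3.22 FPKM in KO hypoxia, 1.51, 1.49 and 1.82 FPKM in WT hypoxia, 1.28, 1.20 and 0.877 FPKM in KO normoxia, and 0.763, 0.548 and 0.778 FPKM in WT normoxia. The 4 groups did not overlap and kept that order. The gene reached 1 FPKM in 3 libraries only with the hypoxia libraries, so its calls for hypoxia against normoxia are no support for a rise. The difference between hypoxia and normoxia for rhcgl1 was 1.29 ± 0.13 in KO larvae (adjusted p = 8.04e-06) and 0.62 ± 0.13 in WT larvae (adjusted p = 0.0027). Under hypoxia it was higher in KO than in WT larvae by 0.99 ± 0.13 (adjusted p = 0.000142). How reads shared between the rhcg copies were counted is not given in the sources used here, so the split between these copies is uncertain.

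rhag stood at 103 ± 6.03 FPKM in KO hypoxia and 71.5 ± 5.30 FPKM in WT hypoxia, against 76.1 ± 1.23 FPKM in KO normoxia and 65.8 ± 6.07 FPKM in WT normoxia (SD, n = 3 each). It was higher in KO than in WT larvae under hypoxia by 0.53 ± 0.07 (adjusted p = 0.000174). The summed red cell markers, which include rhag, went the other way, at 1795 to 2062 FPKM in KO hypoxia, against 2481 to 3561 FPKM in WT hypoxia. Of the 13 red cell markers tested, 1 was higher in KO larvae there, rhag itself, and 6 were lower, where 17% of all tested genes were higher and 16.2% lower. The marker hbbe3 reached 1 FPKM in 3 libraries only with the WT hypoxia libraries, so a lower value of it in KO hypoxia is no support. rhd reached at most 1.13 FPKM in any library and was not tested.

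Of the acid-handling genes of HR cells, slc9a3.2 encodes the apical sodium/proton exchanger and lies on chromosome 19 (10738150 to 10771558, minus strand). It was the lowest of the 9 genes, with 1.16, 1.39 and 1.49 FPKM in KO hypoxia, 0.432, 0.595 and 0.912 FPKM in WT hypoxia, 0.906, 0.892 and 0.953 FPKM in KO normoxia, and 0.707, 0.756 and 0.467 FPKM in WT normoxia. These values rest on 19 to 64 reads a library. The KO hypoxia libraries were above all others, and the WT hypoxia and WT normoxia libraries overlapped. It entered the test only through KO hypoxia, where 3 of 3 libraries reached 1 FPKM and no other library did, so it had to be higher in that group and its call is no support for a difference. KO exceeded WT by 0.52 ± 0.13 in hypoxia (adjusted p = 0.00774). The change with hypoxia was 0.29 ± 0.13 in KO larvae (interval 0.01 to 0.57, adjusted p = 0.0820, or 0.0404 with the compared groups alone in the fit) and -0.00 ± 0.13 in WT larvae (interval -0.28 to 0.27). KO and WT differed by 0.23 ± 0.13 in normoxia (interval -0.05 to 0.50).

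Its tandem neighbour slc9a3.1 had 1.166, 1.356 and 1.297 FPKM in KO hypoxia, 0.533, 1.02 and 0.863 FPKM in WT hypoxia, 0.287, 0.297 and 0.213 FPKM in KO normoxia, and 0.122, 0.459 and 0.326 FPKM in WT normoxia. It too reached 1 FPKM in 3 libraries only through KO hypoxia, with 1 other library at that level, so its difference of 0.84 ± 0.14 between KO hypoxia and KO normoxia (adjusted p = 0.000316) is no support for a change. In both genotypes the hypoxia libraries of slc9a3.1 were above the normoxia libraries. As slc9a3.1 passed the filter only with hypoxia libraries, that separation is no support either. For slc9a3.2 the hypoxia libraries were above in KO larvae alone, where the filter required it. Reads could be split between these copies.

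ca15a, a membrane-bound carbonic anhydrase of HR cells on chromosome 12 (4320041 to 4331117, minus strand), moved the other way. It had 17.1, 17.6 and 14.4 FPKM in KO hypoxia, 20.31, 15.02 and 16.63 FPKM in WT hypoxia, 21.3, 18.9 and 20.2 FPKM in KO normoxia, and 20.5, 20.6 and 20.7 FPKM in WT normoxia. The hypoxia libraries were below the normoxia libraries in both genotypes, and the genotypes overlapped in both conditions. Hypoxia lowered ca15a in KO larvae by a log2 fold change of -0.29 ± 0.10 (adjusted p = 0.0311). This call was lost with no filter (0.0537), without KO normoxia replicate 1 (0.102) or 3 (0.0729) and without KO hypoxia replicate 3 (0.131), within a range of 0.00063 to 0.131.

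In WT larvae the change of ca15a was -0.25 ± 0.10 (interval -0.46 to -0.04, adjusted p = 0.0647). It passed the threshold with TPM scaling (0.0219), with voom (0.00706) and without WT hypoxia replicate 1 (0.00631), within a range of 0.00631 to 0.241. KO and WT differed by -0.07 ± 0.10 in hypoxia (interval -0.28 to 0.14) and by -0.03 ± 0.10 in normoxia (interval -0.25 to 0.18).

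The salt transporters slc12a10.2 and trpv6 took opposite directions under hypoxia in KO larvae. slc12a10.2, the apical sodium-chloride cotransporter of NCC cells, lies on chromosome 7 (4332430 to 4380448, plus strand). It had 5.67, 6.48 and 5.66 FPKM in KO hypoxia, 4.48, 3.84 and 5.33 FPKM in WT hypoxia, 4.23, 4.14 and 4.76 FPKM in KO normoxia, and 4.80, 3.92 and 4.10 FPKM in WT normoxia. The KO hypoxia libraries were the highest and the other 3 groups overlapped. Hypoxia raised it by 0.37 ± 0.10 in KO larvae (adjusted p = 0.0110), a call lost with TPM scaling (0.0967). In WT larvae the change was 0.07 ± 0.10 (interval -0.15 to 0.29).

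KO exceeded WT in slc12a10.2 by 0.33 ± 0.10 in hypoxia (adjusted p = 0.0264, 3 of 3 libraries above) and by 0.03 ± 0.10 in normoxia (interval -0.19 to 0.25). The call in hypoxia was lost with TPM scaling (0.0673), with the compared groups alone in the fit (0.0636), without WT hypoxia replicate 1 (0.0580) or 2 (0.113) and without KO hypoxia replicate 2 (0.0978), within a range of 0.00655 to 0.113. The neighbouring copies stood lower, with slc12a10.1 at 0.102 to 0.721 FPKM and slc12a10.3 at 0.431 to 0.777 FPKM over the 12 libraries, and neither was tested. Reads could be split between these copies too.

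trpv6, the epithelial calcium channel of NaR cells on chromosome 16 (12294284 to 12319822, minus strand), was lower in hypoxia in both genotypes. It had 6.44, 6.55 and 5.63 FPKM in KO hypoxia, 4.42, 3.42 and 5.62 FPKM in WT hypoxia, 9.28, 10.6 and 11.7 FPKM in KO normoxia, and 9.94, 7.58 and 9.16 FPKM in WT normoxia. All 6 hypoxia libraries were below all 6 normoxia libraries. The log2 fold change with hypoxia was -0.67 ± 0.14 in KO larvae (adjusted p = 0.00152) and -0.86 ± 0.14 in WT larvae (adjusted p = 0.000347).

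Under hypoxia the 3 KO libraries of trpv6 lay just above the 3 WT libraries, by 0.41 ± 0.14 (adjusted p = 0.0350). That call was lost with no filter (0.0636), with TPM scaling (0.0582), with the compared groups alone (0.0660), without WT hypoxia replicate 1 (0.0682) or 2 (0.149) and without KO hypoxia replicate 1 (0.0953) or 2 (0.0991), within a range of 0.00583 to 0.149. In normoxia the genotypes overlapped and differed by 0.22 ± 0.14 (interval -0.07 to 0.52).

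Of the regulators, foxi3b had the smallest span of group means among the 9 genes (0.17 on the log2 scale), while foxi3a spanned 0.42. foxi3a, on chromosome 21 (30351256 to 30352951, plus strand), had 10.3003, 9.95 and 9.41 FPKM in KO hypoxia, 9.38, 7.43 and 8.00 FPKM in WT hypoxia, 7.30, 6.87 and 7.21 FPKM in KO normoxia, and 8.33, 7.25 and 9.09 FPKM in WT normoxia. The KO hypoxia libraries were the highest, if only by a small margin over WT hypoxia replicate 1, and KO normoxia held the lowest value. Hypoxia raised foxi3a by 0.42 ± 0.09 in KO larvae (adjusted p = 0.00184). In WT larvae the change was 0.01 ± 0.09 (interval -0.18 to 0.20), with a negative sign under TPM scaling and voom.

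KO and WT differed in foxi3a by 0.24 ± 0.09 in hypoxia (interval 0.05 to 0.43, adjusted p = 0.0541) and by -0.18 ± 0.09 in normoxia (interval -0.37 to 0.01, adjusted p = 0.183). The hypoxia difference passed with the replicate block (0.0403) and without WT hypoxia replicate 1 (0.0144), within a range of 0.0144 to 0.199. The interaction was 0.42 ± 0.12 (interval 0.15 to 0.68, adjusted p = 0.0540). It passed with the replicate block (0.0427), without WT normoxia replicate 2 (0.0297) and without WT hypoxia replicate 1 (0.0197), within a range of 0.0197 to 0.121.

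foxi3b, on chromosome 14 (34514336 to 34516587, plus strand), had 10.22, 10.11 and 9.64 FPKM in KO hypoxia, 9.33, 9.28 and 9.50 FPKM in WT hypoxia, 8.64, 8.29 and 9.44 FPKM in KO normoxia, and 9.11, 10.5 and 9.48 FPKM in WT normoxia. The 4 groups lay close together, and WT normoxia replicate 2 was the highest library. Its change with hypoxia was 0.17 ± 0.06 in KO larvae (interval 0.03 to 0.31, adjusted p = 0.0517) and -0.04 ± 0.06 in WT larvae (interval -0.18 to 0.10). The change in KO larvae passed without KO normoxia replicate 3 (0.0306), within a range of 0.0306 to 0.813.

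**Figure D3:**
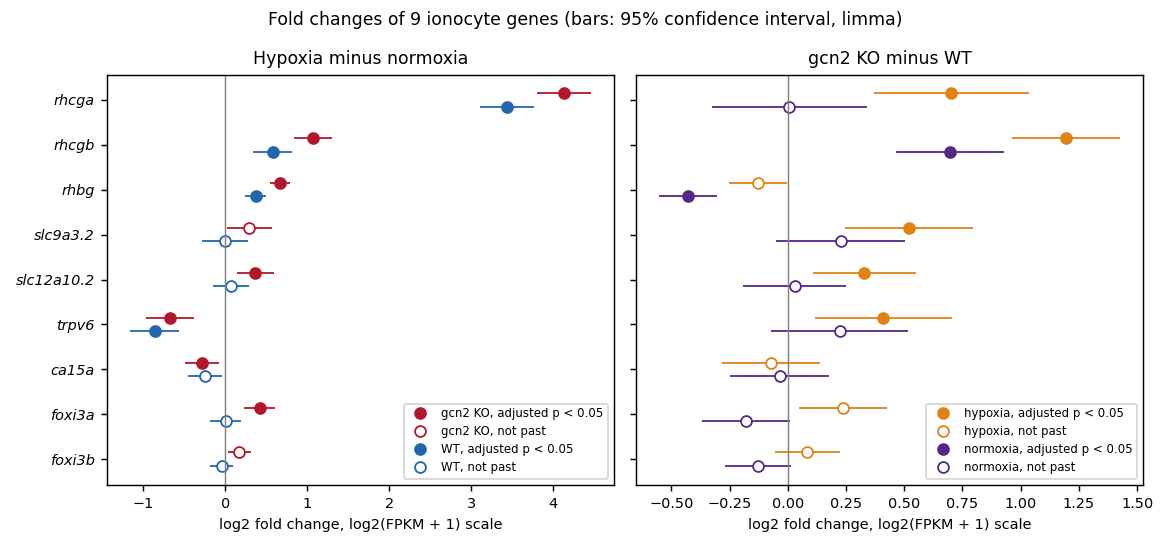
Log2 fold changes of the 9 genes on the log2(FPKM + 1) scale with 95% confidence intervals from limma, for hypoxia minus normoxia (left; KO red, WT blue) and KO minus WT (right; hypoxia orange, normoxia purple); filled points have an adjusted p under 0.05. The rhcga points for hypoxia stand at 4.13 in KO and 3.44 in WT larvae, trpv6 at -0.67 and -0.86.

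Counted over the 9 genes, hypoxia called 7 in KO larvae (5 higher, 2 lower), where 44% of all tested genes were called (21.8% higher, 22.2% lower), and 4 in WT larvae (3 higher, 1 lower), where 36% were (16.8% higher, 19.2% lower). Between the genotypes, 5 genes were called in hypoxia, all higher in KO larvae, where 33.1% of all tested genes were called with 17% higher and 16.2% lower. One of these 5 is slc9a3.2, which passed the filter through KO hypoxia alone. In normoxia 2 genes were called (1 higher, 1 lower), where 16.7% of all genes were (7.63% higher, 9.11% lower). In the interaction 1 gene was called, higher in KO larvae, where 9.25% of all genes were (4.74% higher, 4.5% lower). Libraries did not overlap between hypoxia and normoxia for all 9 genes in KO larvae, where 55.3% of tested genes did not, and for 5 in WT larvae, where 46.2% did not. Between KO and WT larvae they did not overlap for 7 genes in hypoxia, where 42.7% of genes did not, and for 3 in normoxia, where 40.6% did not. Both the 9 in KO larvae and the 7 in hypoxia include slc9a3.2. The filter fixed its separation in these comparisons, so it is no support there. The comparisons share groups, so the counts are not independent of each other. The 9 genes were chosen with earlier results of these data known, so the shares of all genes are a description and no test.

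The wider ionocyte genes were read from 4 lists of markers of HR, NaR, NCC and other (potassium- or SLC26-transporting) ionocytes. These lists too were chosen with earlier results of these data known. Leaving out the 9 genes, 28 of their genes were tested. Under hypoxia 13 of these were higher and 2 lower in KO than in WT larvae, with a median log2 fold change of 0.26, against -0.00 for all tested genes, of which 17% were higher and 16.2% lower. In normoxia 5 were higher and 0 lower, with a median of 0.03, where 7.63% of all tested genes were higher and 9.11% lower. The 5 became 3 without WT normoxia replicate 1, 2 without WT normoxia replicate 3 and 2 without KO normoxia replicate 3. Without one library the count in hypoxia ran from 10 to 14 higher and 1 to 4 lower, and it was 11 higher and 2 lower with TPM scaling. Between hypoxia and normoxia the same 28 went both ways. In KO larvae 8 were higher and 6 lower, where 21.8% of all tested genes were higher and 22.2% lower. In WT larvae 3 were higher and 6 lower, where 16.8% of all tested genes were higher and 19.2% lower. The KO count became 5 higher and 9 lower with TPM scaling, 6 and 9 with voom, and 5 and 5 without KO hypoxia replicate 2. The WT count became 3 higher and 10 lower with voom, and the 3 higher became 2 without WT normoxia replicate 3. The 3 higher in WT larvae include stc1, which reached 1 FPKM in 3 libraries only with the hypoxia libraries. Its call there is no support for a rise.

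Within the HR list, 8 genes other than the 9 were tested, and 4 were higher and 1 lower in KO larvae under hypoxia. Of all tested genes, 17% were higher and 16.2% lower in that comparison. atp1b1a, a sodium pump beta subunit, averaged 123 FPKM in KO hypoxia, against 86.7 FPKM in WT hypoxia (0.50 ± 0.05, adjusted p = 3.19e-05). The same subunit was higher in KO larvae in normoxia, by 0.38 ± 0.05 (adjusted p = 0.000534). ceacam1 was higher in KO hypoxia by 0.31 ± 0.06 (adjusted p = 0.00149), and atp6v0ca, a subunit of the proton pump, by 0.24 ± 0.05 (adjusted p = 0.0037). The gene lower in KO hypoxia was slc4a1b, with a log2 fold change of -0.28 ± 0.09 (adjusted p = 0.0339). In WT larvae hypoxia lowered 2 proton pump subunits, with a log2 fold change of -0.28 ± 0.05 for atp6v0ca (adjusted p = 0.000975) and -0.26 ± 0.05 for atp6v1aa (adjusted p = 0.00107).

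Of the 6 NaR genes tested beside trpv6, 3 were higher and 1 lower in KO larvae under hypoxia. The shares of all tested genes in that comparison were 17% higher and 16.2% lower. The sodium pump subunits atp1a1a.1 and atp1b1b were higher there by 0.38 ± 0.04 (adjusted p = 5.87e-05) and 0.32 ± 0.06 (adjusted p = 0.00164), while slc8a1b, a sodium/calcium exchanger, was lower with a log2 fold change of -0.37 ± 0.09 (adjusted p = 0.00717). Within KO larvae hypoxia raised atp1b1b by 0.58 ± 0.06 (adjusted p = 1.09e-05), and lowered slc8a1b and the calcium pump gene atp2b2, with log2 fold changes of -0.45 ± 0.09 (adjusted p = 0.00133) and -0.56 ± 0.12 (adjusted p = 0.00199). The change of igfbp5a, which binds insulin-like growth factor, was 0.01 (adjusted p = 0.930), and that of stc1, a stanniocalcin, -0.25 (adjusted p = 0.156). igfbp5a is among the 3 genes higher in KO than in WT larvae under hypoxia, by 0.28 ± 0.09 (adjusted p = 0.0273).

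Beside slc12a10.2, the NCC list had 2 of 5 genes higher and 0 lower in KO larvae under hypoxia. Of all tested genes, 17% were higher and 16.2% lower in that comparison. The sodium pump subunit atp1a1a.2 of the NCC list averaged 45.8 FPKM in KO hypoxia and 36.2 FPKM in WT hypoxia (0.33 ± 0.06, adjusted p = 0.00161). Hypoxia raised it by 0.65 ± 0.06 in KO larvae (adjusted p = 4.96e-06) and by 0.35 ± 0.06 in WT larvae (adjusted p = 0.000895). Against the same shares of all tested genes, 4 of the 9 other-ionocyte genes tested were higher and 0 lower in KO hypoxia. They included slc26a3.2, a chloride/bicarbonate exchanger, which averaged 3.28 FPKM in KO hypoxia, against 1.102 FPKM in WT hypoxia (1.04 ± 0.17, adjusted p = 0.000569). kcnj1a.1, a potassium channel, was higher by 0.70 ± 0.12 (adjusted p = 0.00108), and its tandem copy kcnj1a.2 fell with hypoxia in both genotypes, with log2 fold changes of -0.69 ± 0.11 in KO (adjusted p = 0.000291) and -0.71 ± 0.11 in WT larvae (adjusted p = 0.00032).

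**Figure D4:**
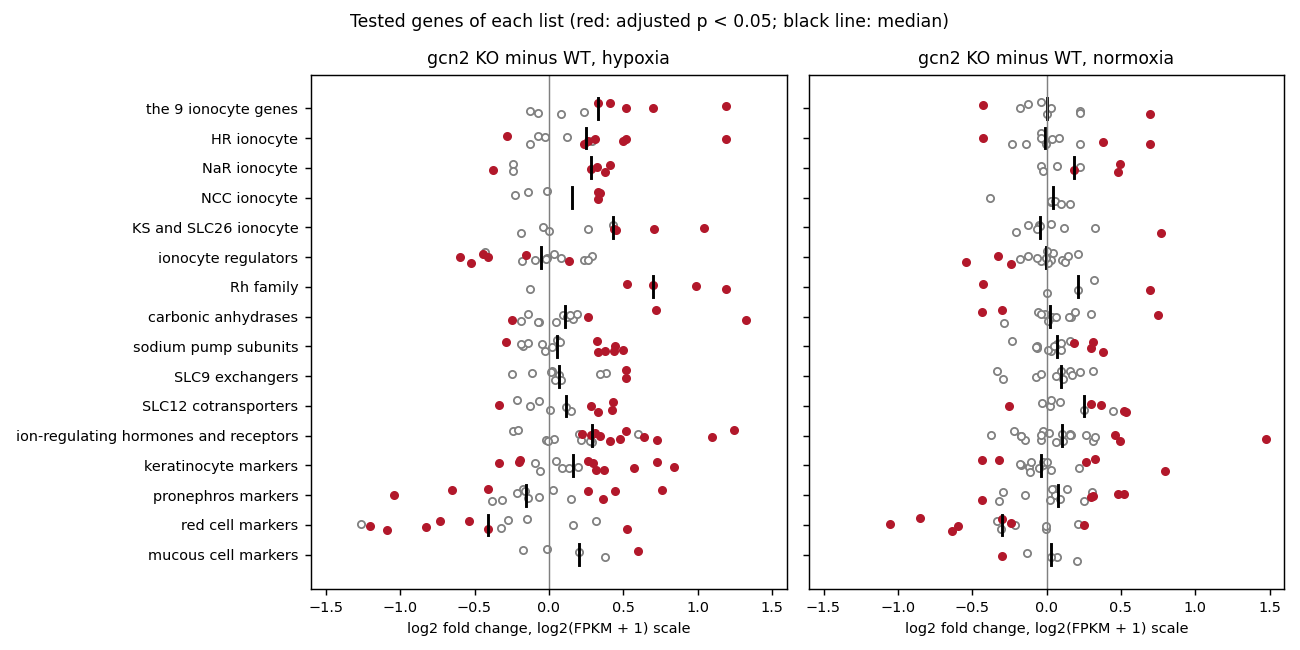
Log2 fold changes (KO minus WT, log2(FPKM + 1) scale) of the tested genes of each list, in hypoxia (left) and normoxia (right); each point is 1 gene, red where the adjusted p was under 0.05, and the black line is the list's median. The median of the Rh family is 0.70 in hypoxia and 0.21 in normoxia, and that of the red cell markers is -0.41 and -0.30.

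Beside foxi3a and foxi3b, 14 regulators of ionocyte fate were tested. Under hypoxia 1 of them was higher (0 with TPM scaling) and 5 were lower in KO than in WT larvae, where 17% of all tested genes were higher and 16.2% lower. Their median log2 fold change was -0.13. It includes foxi1 (-0.43, without a call), which reached 1 FPKM in WT libraries alone, so its lower value in KO larvae is no support. The lower ones included the Notch receptors notch3, notch1b and notch1a, with log2 fold changes of -0.41 ± 0.08 (adjusted p = 0.00193), -0.52 ± 0.13 (adjusted p = 0.0074) and -0.60 ± 0.15 (adjusted p = 0.00971), and mib1, the ubiquitin ligase that activates Notch ligands, with -0.45 ± 0.07 (adjusted p = 0.000422). Within KO larvae hypoxia lowered the 3 receptors, with -0.62 ± 0.08 for notch3 (adjusted p = 5.11e-05), -0.62 ± 0.13 for notch1b (adjusted p = 0.00155) and -0.79 ± 0.15 for notch1a (adjusted p = 0.00114). her9, a transcriptional repressor of the hairy family, rose in both genotypes, by 0.71 ± 0.09 in KO (adjusted p = 3.22e-05) and 0.39 ± 0.09 in WT larvae (adjusted p = 0.00308). These genes act in many larval tissues.

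Of 13 carbonic anhydrases tested beside ca15a, hypoxia raised 2 and lowered 0 in KO larvae, where 21.8% of all tested genes were higher and 22.2% lower, and raised 3 and lowered 4 in WT larvae, where 16.8% were higher and 19.2% lower. The 0 lowered in KO larvae became 3 with TPM scaling and 3 with voom. The largest rise was that of ca5a, a mitochondrial form, to 82.1 FPKM in KO hypoxia, against 21.96 FPKM in KO normoxia (1.85 ± 0.06, adjusted p = 7.1e-10), and to 49.4 FPKM in WT hypoxia, against 19.5 FPKM in WT normoxia (1.298 ± 0.06, adjusted p = 1.61e-08). ca4b averaged 13.2 FPKM in KO hypoxia, against 4.81 FPKM in WT hypoxia (1.33 ± 0.15, adjusted p = 4.95e-05).

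Of 10 sodium/proton exchangers and their partners tested beside slc9a3.2, 1 was higher and 0 lower in KO larvae under hypoxia, a share below the 17% of all tested genes that were higher. It was slc9a3r1a, a scaffold protein that binds such exchangers (0.52 ± 0.06, adjusted p = 5.55e-05), and the 1 became 2 with voom. Of 10 SLC12 cotransporters tested beside slc12a10.2, 3 were higher and 1 lower in KO than in WT larvae under hypoxia. The shares of all tested genes there were 17% and 16.2%. Between hypoxia and normoxia, slc12a7b, a potassium-chloride cotransporter, was the clearest of these cotransporters. It was higher in hypoxia by 0.93 ± 0.06 in KO (adjusted p = 1.16e-07) and by 0.81 ± 0.06 in WT larvae (adjusted p = 6.6e-07).

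Among 21 hormones and receptors that act on ion balance, hypoxia raised 14 and lowered 0 in KO larvae, where 21.8% of all tested genes were higher and 22.2% lower. In WT larvae it raised 8, lowered 1 and left 12 without a call, where 16.8% of all tested genes were higher and 19.2% lower. The genes pth1b and pth2 among the 14, and stc1 among the 8, reached 1 FPKM in 3 libraries only with the hypoxia libraries, so their calls are no support. cyp24a1, which breaks down active vitamin D, averaged 75.8 FPKM in KO hypoxia and 31.6 FPKM in WT hypoxia, against 15.8 FPKM in KO normoxia and 5.03 FPKM in WT normoxia. It rose with hypoxia by 2.19 ± 0.13 in KO (adjusted p = 6.8e-08) and 2.43 ± 0.13 in WT larvae (adjusted p = 5e-08), and was higher in KO larvae by 1.25 ± 0.13 in hypoxia (adjusted p = 2.04e-05) and 1.48 ± 0.13 in normoxia (adjusted p = 1.09e-05). The stanniocalcin stc2a rose with hypoxia by 0.74 ± 0.08 in KO (adjusted p = 1.24e-05) and 0.67 ± 0.08 in WT larvae (adjusted p = 3.79e-05). pth1b, a parathyroid hormone, averaged 3.504 FPKM in KO hypoxia, against 1.203 FPKM in WT hypoxia (1.098 ± 0.22, adjusted p = 0.00245), and it passed the filter through KO hypoxia alone.

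Markers of other cells that share some of these genes moved too. Keratinocyte markers summed to 11157 to 12308 FPKM in KO hypoxia and 12084 to 13888 FPKM in WT hypoxia, against 7786 to 8570 FPKM in KO normoxia and 9482 to 10170 FPKM in WT normoxia. Of 16 tested, hypoxia raised 12 and lowered 1 in KO larvae and raised 10 and lowered 3 in WT larvae (21.8% and 22.2% of all tested genes in KO larvae, 16.8% and 19.2% in WT larvae), and KO larvae were higher in 7 and lower in 3 under hypoxia. Of all tested genes, 17% were higher and 16.2% lower in KO than in WT larvae under hypoxia. Pronephros markers, of kidney tubules that also use several of these transporters, summed to 173 to 177 FPKM in KO hypoxia, 146 to 150 FPKM in WT hypoxia, 171 to 188 FPKM in KO normoxia and 146 to 153 FPKM in WT normoxia. Of 16 tested, 4 were higher and 3 lower in KO larvae under hypoxia, among them cdh17 at 0.76 ± 0.09 (adjusted p = 6.76e-05) and the water channel aqp8b at -1.04 ± 0.14 (adjusted p = 0.000143). Mucous cell markers summed to 42.6 to 48.4 FPKM in KO hypoxia and 30.9 to 39.0 FPKM in WT hypoxia, against 54.7 to 56.7 FPKM in KO normoxia and 53.6 to 56.2 FPKM in WT normoxia. Of 5 tested, 1 was higher in KO hypoxia than in WT hypoxia, agr2 (0.60 ± 0.06, adjusted p = 2.93e-05). No marker in these 3 lists was at 0 in every library, and the part of such cells in the changes of the 9 genes was not tested.

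Profiles were compared by root mean square difference of centred log2(FPKM + 1) over the 12 libraries. Only tested genes with a conventional symbol were compared, which leaves out clone-based and placeholder names. The nearest to rhcga were ankrd37 (0.21), ponzr3 (0.24), egln3 (0.26), ponzr4 (0.29) and map1lc3cl (0.31). ankrd37 averaged 67.6 FPKM in KO hypoxia and 50.1 FPKM in WT hypoxia, against 3.25 FPKM in KO normoxia and 3.49 FPKM in WT normoxia. egln3, an oxygen-dependent prolyl hydroxylase, averaged 44.5 FPKM in KO hypoxia and 31.6 FPKM in WT hypoxia, against 2.47 FPKM in KO normoxia and 1.91 FPKM in WT normoxia.

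For rhcgb the nearest were derl3 (0.12), the gene with the table symbol CYP1A1 (0.15), aqp9b (0.16), hhipl1 (0.17) and ldhbb (0.18). derl3, a factor of protein disposal from the endoplasmic reticulum, averaged 20.1 FPKM in KO hypoxia and 8.00 FPKM in WT hypoxia, against 8.62 FPKM in KO normoxia and 5.55 FPKM in WT normoxia. For trpv6 they were ckmt2 (0.12), retsat.2 (0.13), dhrs11b.2 (0.13), ppp1r3c2a (0.14) and ugt5d1 (0.15). ckmt2, a mitochondrial creatine kinase of muscle, averaged 52.9 FPKM in KO hypoxia and 39.1 FPKM in WT hypoxia, against 80.2 FPKM in KO normoxia and 69.1 FPKM in WT normoxia. These likenesses are over 12 libraries of 4 groups and are a description. The 6 other genes spanned less than 1 on the log2 scale between group means and were not compared in this way.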

How the data were processed

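Per the labels, poly(A) RNA of whole larvae was prepared with an NEBNext Ultra kit. The submitters' processing notes name fastp, HISAT2 (version 2.2.1), featureCounts (version 2.0.6) and the GRCz11 build. The authors deposited FPKM for 35004 genes in 12 libraries with gene length and coordinates. Their strand setting and their handling of shared reads are not given in the sources used here. FPKM times length came in whole steps (within 0.05 of a step for 100% of values), which gave reads per gene. The median ratio between each library and the mean library was 1.01 in all 12, so the deposited values share a median-ratio scale. Median ratio scaling divides every library by the same factor and changes almost nothing by construction. For hypoxia in KO larvae it gave 9453 called genes, against 9451. Calls kept under it are thus no support. Totals behind the FPKM were 0.945 to 1.07 times the recovered reads, and this ratio differed by group. It was 0.945 to 0.980 in KO hypoxia, 0.950 to 0.997 in WT hypoxia, 1.060 to 1.068 in KO normoxia and 1.013 to 1.038 in WT normoxia.

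The 21480 genes that reached 1 FPKM in 3 or more libraries were fitted with limma 3.58.1 in R 4.3.3 as log2(FPKM + 1), over all 12 libraries with 4 group means and a variance trend. Tests were two-sided, with Benjamini-Hochberg adjustment over all genes tested. All 9 genes passed the filter. The 9 genes and the 15 lists were chosen with earlier results of these data known. Of 201 list entries, 196 were matched to the table. The genes named from the lists came from the up to 4 with the smallest adjusted p in each comparison, or past 1 on the log2 scale. Beyond these, slc4a1b was named as the HR gene lower in KO hypoxia. The nearest profiles are the 5 smallest differences among genes with a conventional symbol, given for genes spanning at least 1. Replicate numbers were not taken as pairs: over 18 same-number pairs, residual correlations ran from -0.087 to 0.119 with a median of 0.015. The fits were tested on simulated data. Alternatives were a pseudocount of 0.1, no filter (31402 genes), TPM scaling, median ratio scaling, voom on recovered reads, the replicate block, the compared groups alone and each library left out. The labels state biological replicates and give no batch. Tables were made in pandas 2.3.3 and numpy 2.4.6 (Python 3.11.15), figures in matplotlib 3.10.9.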

Additional observations from a re-analysis of the deposited data

Results flagged for a closer look

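The response to hypoxia differed between KO and WT larvae past the threshold for 23 genes of the lists (interaction of genotype and oxygen, limma, adjusted p under 0.05). Each value is the log2 response in KO larvae minus that in WT larvae. Of the Rh family, rhbg had 0.30 and rhcgl1 0.67. The rhcgl1 call was lost under 14 of its alternatives, and the calls kept under every alternative run were those of slc4a1a, ca5a, agr2, epb41b, cldnb, notch3 and atp1a3b. Both rhcgl1 and stc1 reached 1 FPKM in 3 libraries only with the hypoxia libraries, so their calls here are no support. Of the ionocyte lists and sodium pumps, ceacam1 had 0.33, atp1a1a.3 0.50, atp2b2 -0.73, stc1 -0.73 and atp1a3b -0.48. Of the regulators, notch3 had -0.55, mib1 -0.45 and notch1b -0.73. Of the carbonic anhydrases, ca5a had 0.56 and cahz 0.46. Of the exchangers, cotransporters and receptors, slc9a3r1a had 0.35, slc12a2 -0.31, slc4a4a -0.47 and vdrb 0.56. Of the red cell markers, slc4a1a had -0.79, epb41b -0.72 and hbbe2 -0.35. Of the keratinocyte and mucous cell markers, cldnb had 0.40, cdh1 0.35, cldne 0.28 and agr2 0.53. Over all tested genes 9.25% were called in this test. Of 34 genes tested in the 4 ionocyte lists, 3 were higher and 2 lower. For sodium pumps it was 1 and 1 of 15, for hormones and receptors 1 and 1 of 21, for red cell markers 1 and 3 of 13. The calls were 2 of 5 Rh genes, 2 of 14 carbonic anhydrases, 3 of 16 keratinocyte and 1 of 5 mucous cell markers, all higher. They were 3 of 16 regulators and 1 of 16 pronephros markers, all lower. The lists share genes.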

How the results depend on the processing

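Of 19 calls among the 9 genes, 14 were kept under every alternative run and 0 changed direction. The slc9a3.2 call for KO against WT in hypoxia is among the 14. That gene passed the filter through KO hypoxia alone, so its being kept under alternatives that use the filter is no support. The calls not kept throughout are given beside their genes. The number of the 9 genes called for KO against WT in hypoxia, slc9a3.2 included, was 3 with the compared groups alone and 3 to 5 without one library. For the interaction it was 0 with no filter, 0 with TPM scaling, 2 with the replicate block and 0 to 3 without one library. The replicate block changed no call of the 9 genes other than those of foxi3a. Residual correlations with the libraries of other groups were averaged by replicate number. For 5 of the 12 libraries this mean was highest for their own number. With TPM scaling and with voom, the median over all genes of the hypoxia response in KO larvae came to -0.14 (log2). Relative to that shift, slc12a10.2 changed there by 0.40 with TPM scaling, where its call was lost, and by 0.44 with voom.

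TPM scaling also moved the split of calls over all genes, to 2768 higher and 7231 lower for hypoxia in KO larvae (4684 and 4767 in the deposited scale), 2821 and 4266 for KO against WT in hypoxia (3641 and 3470), 2125 and 1238 in normoxia (1638 and 1957), and 409 and 1698 in the interaction (1019 and 967). With voom these splits were 3084 and 7153, 3598 and 3866, 2789 and 1647, and 843 and 2036, and that for hypoxia in WT larvae was 2893 and 5366 (3598 and 4125). All genes called in the interaction numbered 1986, against 1230 with no filter and 480 to 2839 without one library. In normoxia they numbered 3595, against 2048 to 3036 without one library.

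Changes below the threshold turned sign as follows. For hypoxia in WT larvae foxi3a was -0.022 with TPM scaling and -0.064 with voom. Without one library, it ranged from -0.077 to 0.074, slc9a3.2 from -0.12 to 0.092, slc12a10.2 from -0.030 to 0.16 and foxi3b from -0.084 to 0.011. For KO against WT in normoxia rhcga was -0.0068 with a pseudocount of 0.1, and ca15a 0.031 with TPM scaling and 0.018 with voom. Without one library, rhcga ranged from -0.20 to 0.11, slc12a10.2 from -0.020 to 0.10 and ca15a from -0.074 to 0.0076. In hypoxia ca15a ranged from -0.16 to 0.043, and in the interaction from -0.13 to 0.077. Of 279 calls of the other list genes, 183 were kept under every alternative and 3 changed sign. Counts of low genes limit precision most for slc9a3.2, at 19 to 64 reads.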
